A study of Rattus norvegicus with 3 samples.

Results

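The genes of 10 glycolytic enzymes, from aldolase to lactate dehydrogenase, were read on arrays of 3 single rat hippocampal somata: Aldoa, Aldoc, Tpi1, Gapdh, Pgk1, Eno1, Eno2, Pkm, Ldha and Ldhb. A gene was represented by the probe sets whose only symbol in the platform annotation was that gene, which gave 13 probe sets for 9 of the 10 genes, out of 31099 probe sets and 14218 genes in all. Of these 9 genes, 7 had 1 probe set and 2, Gapdh and Pgk1, had 3. Pkm, pyruvate kinase, had none, because its probe set also carried the symbol of a pseudogene, and it was not analysed here. The 3 probe sets of Gapdh were the manufacturer's 5', middle and 3' control probe sets.

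Each array held the amplified RNA of 1 cell body, drawn off with a glass pipette from a pyramidal neuron of a Sprague-Dawley rat. The neurons had been taken at embryonic day 19 and kept for 14 days in dispersed primary culture without treatment. The somata formed 1 group with no control group and are numbered as the replicates were. No animal or culture dish was named for them, so no p-value was computed and the SD (n = 3 cells) gives the spread between these cells, which may be partly technical.

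Glycolysis splits glucose into pyruvate in the cytosol and yields ATP, and lactate dehydrogenase then exchanges pyruvate and lactate. Several steps are served by more than 1 gene. In the brain, Eno2 encodes the gamma enolase of neurons, known as neuron-specific enolase, while Eno1 encodes the alpha enolase of glia and most other cells. Aldoc encodes the brain aldolase, which is strongest in astrocytes and Purkinje cells, and Aldoa the aldolase of muscle and of most cells, neurons included. Ldhb encodes the heart-type subunit of lactate dehydrogenase, which is the more frequent form in neurons, and Ldha the muscle-type subunit, which is more frequent in astrocytes.

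The promoters of several of these genes are known to respond to hypoxia-inducible factor. Short stretches of them are shown around the letters ACGTG, the only form of the core of its response element that was searched. In RefSeq promoters of build GRCr8, taken from 250 bases before to 50 bases after each gene start, the letters ACGTG occurred on either strand for 6 of the 9 genes, Pkm included, that had an entry (Aldoa, Aldoc, Gapdh, Eno1, Eno2 and Ldha) and not for Tpi1, Ldhb or Pkm. The same letters were held by 20.9% of 27457 genes. In the stretches below the capitals mark ACGTG or its reverse complement, read on the strand of the gene. In Ldha the letters marked in the first stretch lie within CACGTG, which matches on both strands, those in the second do not, and in Eno1 they lie after the gene start.
Eno2 (minus strand, chr4:159267345-159267369): ccgcgctcgtACGTGcgtctccgcc
Eno1 (plus strand, chr5:166003389-166003410): gagtcgcgctCACGTttgtcct
Aldoa (minus strand, chr1:190836955-190836979): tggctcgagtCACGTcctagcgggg
Aldoc (plus strand, chr10:63715503-63715527): cccagggagtCACGTagctctgcgg
Ldha, first match (plus strand, chr1:106507996-106508020): cccagcctacACGTGggttcccgca
Ldha, second match (plus strand, chr1:106508009-106508033): tgggttcccgCACGTccgctgggct
Gapdh (minus strand, chr4:159652574-159652598): tttacgggtgCACGTagctcaggcc
The match began 139 bases before the start of Eno2, 31 before that of Aldoc, 86 and 73 before that of Ldha, 121 before that of Gapdh and 192 before one of the starts of Aldoa. In the same windows, GGGCGG or its reverse complement was present for 8 of the 9 genes, all but Gapdh, against 36.0% of all genes. TATAAA on either strand was present for Gapdh alone among them, against 15.3% of all genes. A match says only that the letters are there, and binding was not measured. On chromosome 4 the RefSeq table of that build placed Eno2, Tpi1 and Gapdh near each other, with 4 genes between Eno2 and Tpi1 and 25 between Tpi1 and Gapdh.

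Ldhb stood near the top of every array, whereas Tpi1 and Eno1 read low in at least 1 cell. The percentile of a gene gives its rank among the 14218 genes of the same array, where 50 is the middle. Because probes differ in how well they bind, a higher percentile of 1 gene than of another does not mean that its transcript was more abundant. By mean percentile over the cells the order was Ldhb, Eno2, Ldha, Gapdh, Aldoa, Pgk1, Aldoc, Eno1 and Tpi1. The step from Ldhb to Eno2 (8.46 percentile points) and that from Gapdh to Aldoa (27.0) exceeded the larger SD of the genes concerned, and the other 6 steps did not. The order depended on the probe sets, since with the brightest of each gene Gapdh (96.3) came second, close to Ldhb (96.6) and before Eno2 (83.9), and Pgk1 (65.1) passed Aldoa (53.2). The median percentile of the 9 genes was 72.4, 70.8 and 74.1 in cells 1, 2 and 3, which makes 72.4 ± 1.65 (SD, n = 3 cells), where the middle of all genes is 50 by construction. The small SD depended on the probe sets: with the other ways of choosing them the median was between 61.3 and 68.7 and its SD between 8.84 and 19.1. Of the 9 genes, 4 lay above the 50th percentile in every cell, as 26.4% of all genes did, and 0 lay below it in every cell, as 25.0% of all genes did.

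**Figure D1:**
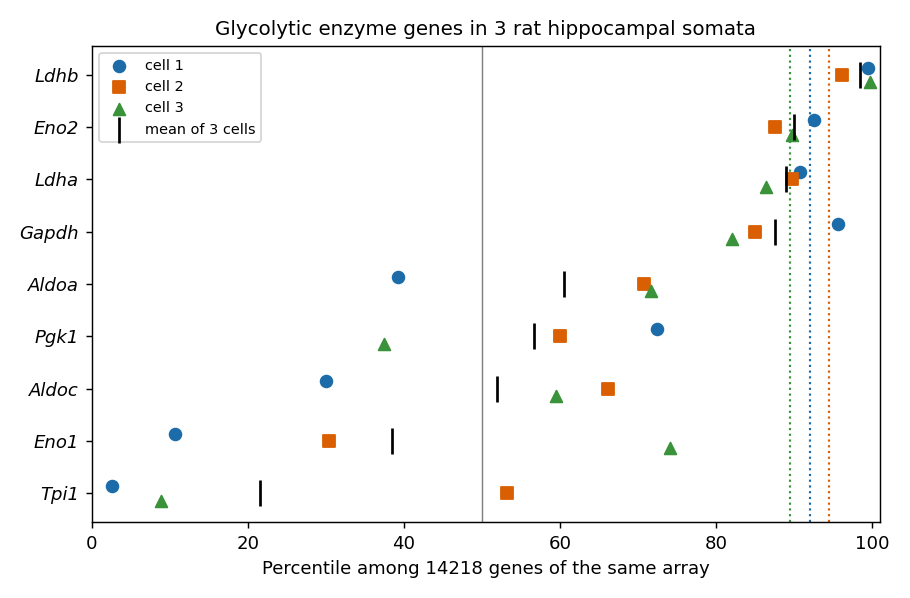
Percentile of each of 9 glycolytic enzyme genes among 14218 genes in 3 somata (circles for cell 1, squares for cell 2, triangles for cell 3), with a black bar at the mean, a grey line at the 50th percentile and dotted lines at the background of each array in the same colours. Ldhb lies right of the background in every cell, Tpi1 and Eno1 spread over the lower and middle part, and Eno2 and Ldha lie close to the background lines.

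Background was read from 123 genes that neurons are not known to use, made of 28 chemosensory receptor genes and 95 genes of organs such as liver, pancreas and testis. A gene was called above background where it exceeded their 95th percentile, which was 9.58, 10.04 and 9.46 log2 in cells 1, 2 and 3. By this rule 3, 1 and 2 of the 9 genes were above background in cells 1, 2 and 3, against 7.95%, 5.55% and 10.6% of all genes. By the median of its probe sets, only Ldhb was above it in every cell (1 of 9 genes, against 2.15% of all genes; without cell 2 Eno2 joined it, 2 of 9; with the brightest probe set Gapdh joined it, 2 of 9), and 6 of 9 genes were above it in no cell, against 83.4% of all genes. In the top 5% of the arrays stood 2, 1 and 1 of the 9 genes in cells 1, 2 and 3, against 4.99%, 4.99% and 5.00% of all genes. Ldhb was the only one of the 9 in the top 5% of every array, where 1.38% of all genes were found, and with the brightest probe sets 0 of 9 were. A value below this background does not show that a transcript was absent, since the background includes bright probe sets of silent genes.

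Of the subunits of lactate dehydrogenase, the last enzyme of the series, Ldhb read high and Ldha was below background in every cell. Ldhb had a log2 intensity of 11.72, 10.37 and 12.37 in cells 1, 2 and 3 (11.49 ± 1.02, SD, n = 3 cells), at percentiles of 99.4, 96.1 and 99.6. Its margin over background was 2.14, 0.32 and 2.91 log2, so cell 2 passed narrowly and cells 1 and 3 clearly. Ldha read 9.39, 9.36 and 9.09 log2, which placed it 0.19, 0.69 and 0.36 log2 below background and at percentiles of 90.7, 89.7 and 86.4. The cells hardly differed in Ldha: its SD after quantile normalisation, which gives the arrays a common distribution, was 0.25 log2, and 7.91% of all genes had a smaller one. For Ldhb that SD was 0.90 log2, above the median of all genes (0.77).

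The enolases, which make phosphoenolpyruvate, gave readings that differed in their spread across the cells. Eno2 read 9.65, 9.12 and 9.48 log2 in cells 1, 2 and 3, at percentiles of 92.5, 87.5 and 89.7. It exceeded background by 0.07 log2 in cell 1 and 0.03 in cell 3, and lay 0.93 below it in cell 2, so it sat on the limit rather than above it. Eno1 read 5.61, 6.50 and 8.23 log2, at percentiles of 10.7, 30.4 and 74.1, and was below background in every cell. After quantile normalisation the SD of Eno2 was 0.32 log2 and that of Eno1 was 1.38 log2, and 12.6% and 82.4% of all genes had a smaller SD. The readings of Eno2 were therefore among the more even over the 3 somata, and those of Eno1, all below background, among the more uneven.

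The aldolases, which split fructose 1,6-bisphosphate, read in the middle of the arrays and shared a low value in cell 1. Aldoa had a log2 intensity of 6.90, 8.06 and 8.09 in cells 1, 2 and 3, at percentiles of 39.2, 70.8 and 71.7. Aldoc read 6.57, 7.85 and 7.55 log2, at percentiles of 30.0, 66.1 and 59.5. Both were below background in every cell, and for both cell 1 was lower than cells 2 and 3, which lay close together.

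Triose phosphate isomerase, which interconverts the triose products of aldolase, was uneven. Tpi1 read 4.80, 7.35 and 5.27 log2 in cells 1, 2 and 3, at percentiles of 2.56, 53.2 and 8.94, and was below background in every cell. Cell 2 alone reached the middle of its array. After quantile normalisation it was 2.63 log2 higher in cell 2 than in cell 1, and 1.98 log2 lower in cell 3 than in cell 2, where 17.4% of all genes were lower by more than 1 log2. The single probe set of Tpi1 leaves no second reading to set beside this one.

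Glyceraldehyde 3-phosphate dehydrogenase and phosphoglycerate kinase carry the steps that reduce NAD and make the first ATP, and their 3 probe sets each gave different readings. The 3' control probe set of Gapdh read 10.47, 11.42 and 11.65 log2 in cells 1, 2 and 3 and was above background in every cell. Its 5' counterpart read 10.26, 8.37 and 8.71 log2, and the middle one 8.67, 8.91 and 8.11. The 3' reading exceeded the 5' reading by 0.20 log2 in cell 1, 3.06 in cell 2 and 2.93 in cell 3. The median of the 3 probe sets, used as the value of Gapdh, was thus the 5' one in cells 1 and 3 and the middle one in cell 2, and gave percentiles of 95.6, 85.0 and 82.0. The high value of Gapdh in cell 1 came from the 5' probe set, while the 3' probe set was lowest in that cell.

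For comparison, the control probe sets of beta-actin differed in the same way, with the 3' reading above the 5' reading by 0.32, 2.07 and 1.71 log2 in cells 1, 2 and 3. Those of hexokinase 1 differed by -2.40, 1.79 and -0.18 log2, while their middle probe set read 13.23, 12.98 and 12.86. These control probe sets were singled out after their values were seen. The part of this difference between gene ends in the readings of the other enzymes was not tested.

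Pgk1 showed the same dependence on the probe set. Its first probe set read 8.10, 7.60 and 9.06 log2 in cells 1, 2 and 3, the second 8.62, 8.27 and 6.70, and the third 4.40, 7.23 and 5.50. All 9 readings were below background. The probe sets disagreed on the order of the cells, with cell 3 highest on the first, cell 1 on the second and cell 2 on the third. The highest and the lowest of the 3 were 4.22, 1.04 and 3.56 log2 apart in cells 1, 2 and 3, and those of Gapdh 1.80, 3.06 and 3.54. Over the 1037 genes with 3 probe sets the median distance was 2.55, 2.59 and 2.64 log2. The distances within these enzymes lay on both sides of that median, and the spread of the distance over genes was not computed.

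**Figure D2:**
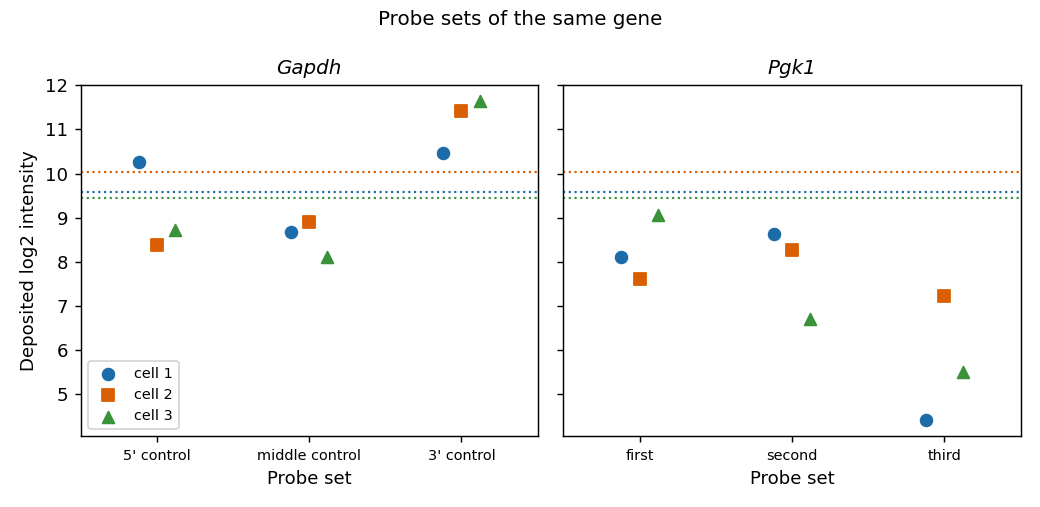
Deposited log2 intensity of the 3 probe sets of Gapdh (left) and of Pgk1 (right) (circles for cell 1, squares for cell 2, triangles for cell 3), with dotted lines at the background of each array in the same colours. The 3' control of Gapdh lies above background in each cell and its 5' control in cell 1 only, and the Pgk1 probe sets rank the cells differently.

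Whether neuronal and glial isoforms moved apart between the somata was examined through the difference between the isoforms of a pair after quantile normalisation. Levels of different probe sets cannot be set against each other, but a fixed affinity drops out of a change of their difference from cell to cell. Other effects of a probe set need not drop out, since the probe sets of Gapdh and of Pgk1 ranked the cells differently. Each isoform gene had only 1 probe set, so the part of such effects in the differences was not tested. Eno1, Ldha, Aldoa and Aldoc were below background in every cell, so the differences are between readings, and no shift between isoform transcripts can be read from them. Eno2 minus Eno1 was 4.27, 2.62 and 1.15 log2 in cells 1, 2 and 3, which is a change of 3.12 log2 in the readings between cells 1 and 3. The Eno1 reading, 3.98, 3.55 and 1.23 log2 below background, supplied most of it, being 2.72 log2 higher in cell 3 than in cell 1, as 26.9% of all genes were by more than 1 log2, while Eno2 was 0.40 log2 lower. Without cell 1 the difference changed by 1.47 log2 between the remaining cells.

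Aldoa minus Aldoc read 0.35, 0.21 and 0.51 log2 in cells 1, 2 and 3, a span of 0.31 log2 (0.15 without cell 3), with Aldoa 1.36 to 2.68 log2 and Aldoc 1.90 to 3.01 log2 below background. Aldoa was 1.21 log2 higher in cell 2 than in cell 1 and Aldoc 1.36 log2 higher, and in cell 3 they were 1.25 and 1.09 log2 higher than in cell 1. A difference of more than 1 log2 in this direction was found for 24.0% of all genes between cells 2 and 1. Both had their lowest percentile in cell 1, as did 41.6% of all genes.

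Ldhb minus Ldha was 2.34, 1.10 and 3.14 log2 in cells 1, 2 and 3, a span of 2.05 log2. Most of it came from Ldhb, which lay 1.38 log2 lower in cell 2 than in cell 1 and 1.70 log2 higher in cell 3 than in cell 2. Shifts of over 1 log2 in these directions were found for 22.5% and 18.8% of all genes. Without cell 2 the span was 0.80 log2. Ldhb itself was above background in every cell, so its own change between cells does not rest on the Ldha reading.

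**Figure D3:**
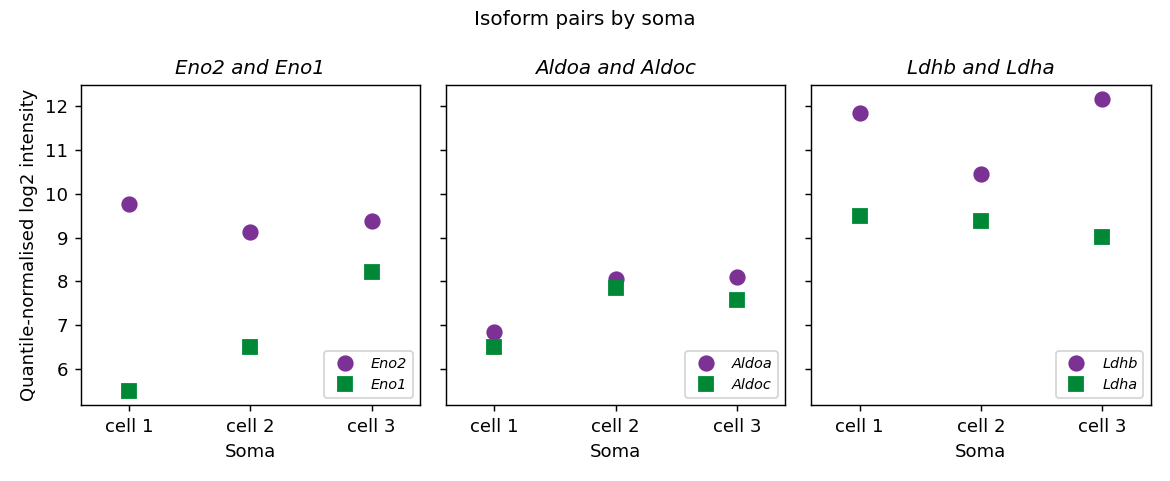
Quantile-normalised log2 intensity in cells 1, 2 and 3 of Eno2 (circles) and Eno1 (squares), of Aldoa (circles) and Aldoc (squares) and of Ldhb (circles) and Ldha (squares), 1 point per soma. Eno1, Ldha and both aldolases are below background in every cell. Only changes of the distance between the points of a pair can be compared, each point resting on 1 probe set. That distance spans 3.12 log2 for the enolases, 0.31 for the aldolases and 2.05 for the lactate dehydrogenases.

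Across all 9 genes, 6 differed by more than 1 log2 (2-fold) when cell 2 was set against cell 1, 5 when cell 3 was set against cell 1 and 3 when cell 3 was set against cell 2, against 46.4%, 49.6% and 36.1% of all genes. At least 1 pair of cells differed by that much for 7 of the 9 genes, against 70.5% of all genes, and Eno2 and Ldha were the 2 that did not. Without cell 1 the count was 3 of 9. Of the 9 genes, 4 had their lowest percentile in cell 1 (Aldoa, Aldoc, Eno1 and Tpi1) and 4 their highest there (Eno2, Ldha, Gapdh and Pgk1), against 41.6% and 32.5% of all genes, so both counts were near those of the arrays. The median SD of the 9 genes over the cells was 0.72 log2, against 0.77 log2 for all genes.

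The labelled cell type was checked by markers. General neuronal markers had a median percentile of 85.7, 84.8 and 90.9 in cells 1, 2 and 3 (20 genes), with Rtn1 the highest and Uchl1 the lowest. Of them 5 (Mapt, Rtn1, Stmn3, Stmn4 and Syp) were above background in every cell, against 2.15% of all genes. Pyramidal markers had 54.8, 61.4 and 82.9 (12 genes), with Tbr1 the lowest. Neurod2 and Nrgn were above background in every cell (2 of 12, against 2.15% of all genes). In cell 3 alone, 2 further pyramidal markers were above background, and 8 of the 12 were above it in no cell, against 83.4% of all genes. Astrocyte markers, measured for 19 of 20 genes without Aldoc, had 48.9, 37.0 and 28.4. Of them 2, 0 and 1 were above background in cells 1, 2 and 3, against 7.95%, 5.55% and 10.6% of all genes. The summed linear intensity of the astrocyte markers was 6523, 2713 and 3236 in cells 1, 2 and 3, with Slc1a3 the highest and Gjb6 the lowest by percentile. Both the median and the sum were highest in cell 1. In that cell Eno1, Aldoc and also Aldoa had their lowest values, and Ldha its highest (9.39, 9.36 and 9.09 log2 in cells 1, 2 and 3). Against 32.5% of all genes, 9 of the 19 markers had their highest percentile in cell 1, and 10 in cell 2 or 3. Without S100b, the brightest of them in cell 1 and singled out after its values were seen, the sum was 3904, 2615 and 3055. The part of astrocyte RNA in the isoform readings was not tested.

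Medians of the other marker lists over the measured genes were 57.3, 70.1 and 36.7 in cells 1, 2 and 3 for interneurons (9 genes, from Calb2 to Gad2), 72.0, 55.9 and 42.7 for oligodendrocytes (13 genes, from Mog to Opalin), 70.8, 51.6 and 31.4 for microglia (12 genes, from C1qc to Aif1) and 55.9, 49.3 and 28.7 for vessels and fibroblasts (13 genes, from Vwf to Lum). Of these 47 genes, Vwf alone was above background in every cell, against 2.15% of all genes. Cell 1 had 4 of the 12 microglial genes above background, and cells 2 and 3 had 0, against 7.95%, 5.55% and 10.6% of all genes in cells 1, 2 and 3.

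Other genes of the pathway gave the same mixture of high and low readings. The remaining enzymes of the chain from hexokinase to phosphoglycerate mutase had a median percentile of 60.3, 62.8 and 67.6 in cells 1, 2 and 3 (8 genes). Pfkp, the platelet-type phosphofructokinase subunit that brain also uses, lay at 98.8, 98.8 and 99.3, and Pgam1, the brain phosphoglycerate mutase, at 98.7, 97.7 and 98.7. These 2 genes were above background in every cell (2 of 8, against 2.15% of all genes). The liver-type subunit Pfkl was the lowest of the 8, at 22.8, 11.7 and 2.23.

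Isoenzymes of muscle, liver or testis had a median percentile of 21.7, 43.4 and 42.3 in cells 1, 2 and 3 (5 measured of 9 listed), and 4 of them were above background in no cell, near the 83.4% of all genes. The fifth, the muscle enolase Eno3, stood at 98.2, 49.0 and 64.6 and was above background in cell 1. The sperm form Gapdhs read highest by its mean, at 53.9, 94.1 and 82.4, and the muscle mutase Pgam2 lowest, at 3.48, 18.8 and 13.3. Of the 5, Eno3 alone thus reached the top 5% of an array, in cell 1.

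Enzymes that set fructose 2,6-bisphosphate, the activator of phosphofructokinase, had median percentiles of 77.4, 57.9 and 61.4 across the somata in the same order (4 genes), from the kinase-dominant Pfkfb3 (79.2, 66.9 and 92.6) to Pfkfb4 (21.4, 47.2 and 71.8). Carriers of glucose and lactate had 49.1, 67.9 and 55.5 (7 genes), from the lactate exporter Slc16a3 (73.9, 93.5 and 87.5) to the monocarboxylate carrier Slc16a1 (19.9, 52.4 and 25.6). Pyruvate entry and oxidation in mitochondria had 41.9, 49.9 and 58.8 (12 genes), from the kinase Pdk3 (78.7, 81.2 and 87.2) to the dehydrogenase component Pdhx (4.35, 0.218 and 6.25). None of these 23 genes was above background in every cell, against 2.15% of all genes.

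**Figure D4:**
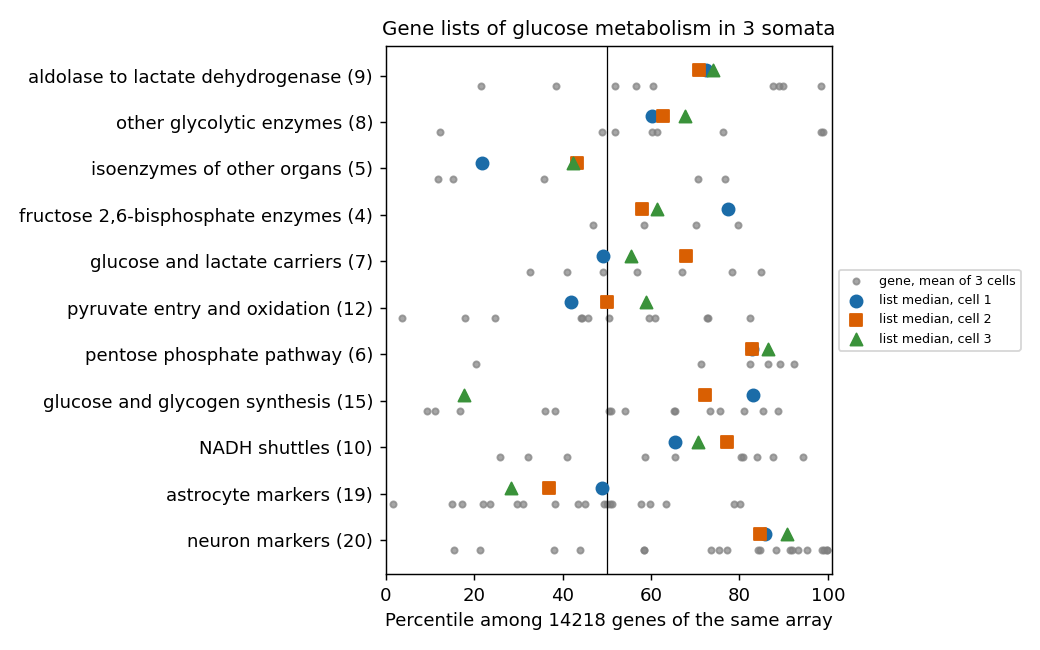
Median percentile of gene lists of glucose metabolism and of astrocyte and neuron markers (circles for cell 1, squares for cell 2, triangles for cell 3), with a grey point below for the mean of each gene over the 3 cells and the number of measured genes in brackets. The 9 enzymes from aldolase to lactate dehydrogenase have medians of 72.4, 70.8 and 74.1, and their single genes spread from Tpi1 at 21.6 to Ldhb at 98.4.

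The genes with readings most like those of Eno2 and Aldoc were found by the mean absolute difference in quantile-normalised log2 over the 3 cells. For Eno2 they were Rheb (0.049 log2), Rptor (0.080) and Sike1 (0.093). For Aldoc they were Vps50 (0.033), Fitm2 (0.060) and Sdhd (0.069). Within 0.5 log2 lay 169 genes for Eno2 and 1262 for Aldoc, so a likeness over 3 cells is not rare.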

How the data were processed

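Biotin-labelled RNA of each soma (5 µg after amplification, with a final step of 14 h) had been hybridised to 1 rat Affymetrix array. The authors deposited log2 intensities per probe set, and the labels name RMA 2.0. The methods of the study, written for dendrite arrays, state an upper-decile summary with median centring and scaling, and the deposited array medians (7.23, 7.16 and 7.09 log2) show no centring. Genome build and detection calls are not given in the sources used here. The upper decile follows the brightest probes of a set.

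Of 31099 probe sets, 20832 had 1 symbol, 436 several and 9831 none. Gene numbers of 20764 were found in the RefSeq table of GRCr8 and changed 0 symbols. Probe sets with 1 symbol were joined per gene by their median and ranked within each array. Differences between cells used quantile normalisation, since sorted values differed by up to 0.69 log2. It was tested on simulated data with 200 changed genes. Between these cells 36.1% to 49.6% of all genes differed by more than 1 log2, so that test checked the calculation only. Alternatives varied the choice of probe sets, background, scale, filter and cells. Background correction and slide could not be varied. Named genes were the 10 enzymes, the highest and lowest of each list and those above background in every cell, and the 3 nearest to Eno2 and to Aldoc. Members and lists were chosen with earlier results of these data known. The number of arrays limits the precision. Python 3.11.15 with pandas 2.3.3 was used.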

Additional observations from a re-analysis of the deposited data

How the results depend on the processing

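The median percentile of the enzymes (72.4) moved to 68.7 with the brightest probe set per gene, 62.5 with the mean of the probe sets, 61.3 without probe sets that can match several transcripts and 65.7 without control probe sets, and ranged from 71.6 to 73.3 with 1 cell left out. The count above background in every cell (1) was 2 with the brightest probe set, 0 with background at the 99th percentile, 2 with receptor genes alone as background, and 1 to 2 with 1 cell left out. The count in the top 5% of every cell (1) was 0 with the brightest probe set and 0 among genes whose mean passed background, where 1 enzyme was left, and stayed at 1 without any of the cells. The count past 1 log2 between cells (7) ranged from 3 to 6 with 1 cell left out, lowest without cell 1. With 1 cell left out, the span of Eno2 minus Eno1 ranged from 1.47 to 3.12 log2, that of Aldoa minus Aldoc from 0.15 to 0.31 and that of Ldhb minus Ldha from 0.80 to 2.05. Of 62 values of these results under alternatives 48 stayed within the spread or within 1.5 times, as did 59 of 62 values for single enzymes. These counts do not measure robustness, because 7 of the 9 enzymes had 1 probe set, which leaves no other to choose. For the isoform spans the allowed change was the SD of the same 3 cells. Eno2 minus Eno1 thus counted as within at a span of 1.65 log2 without cell 3. The cause of the changes was not tested, except that fewer cells can only narrow a span. No paired analysis was possible because the cells form 1 group.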

Other observations

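Pathways that branch from glycolysis were read on the same arrays. Genes of the pentose phosphate pathway, which makes NADPH, had median percentiles of 82.9, 82.8 and 86.4 in cells 1, 2 and 3 (84.0 ± 2.06, SD, n = 3 cells, 6 genes), from the ribose phosphate isomerase Rpia (89.0, 91.6 and 96.4) to the ribulose phosphate epimerase Rpe (7.42, 49.0 and 5.10). Shuttles that reoxidise cytosolic NADH had 65.5, 77.3 and 70.7 (10 genes), from the mitochondrial malate dehydrogenase Mdh2 (98.3, 88.0 and 96.6) to the cytosolic aminotransferase Got1 (30.0, 11.3 and 36.0). None of these 16 genes was above background in every cell, against 2.15% of all genes.

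Genes of glucose and glycogen synthesis and glycogen breakdown had median percentiles of 83.0, 72.3 and 17.6 in cells 1, 2 and 3 (15 genes), from the phosphoglucomutase Pgm1 (99.1, 81.9 and 85.4) to Ugp2, which makes UDP-glucose (1.59, 9.66 and 17.0). Of the 15, 8 were more than 1 log2 lower in cell 3 than in cell 1 and 2 were higher, against 22.7% and 26.9% of all genes. Above background were 3, 1 and 0 of the 15 in cells 1, 2 and 3, against 7.95%, 5.55% and 10.6% of all genes. In no cell were 11 above it, against 83.4% of all genes, so most of these differences lay between readings below background. The medians of microglial (70.8, 51.6 and 31.4), oligodendrocyte (72.0, 55.9 and 42.7) and astrocyte markers (48.9, 37.0 and 28.4) were also lower in cell 3 than in cell 1, and the 3' control of Gapdh exceeded the 5' one by 0.20 log2 in cell 1 and 2.93 in cell 3. Their part in this result was not tested. Genes outside glycolysis that hypoxia-inducible factor is known to induce had 63.0, 39.0 and 48.9 (15 genes), from the mitophagy receptor Bnip3 (96.7, 93.5 and 99.4) to the collagen prolyl hydroxylase subunit P4ha1 (1.49, 39.0 and 11.6).

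The 2 probe sets that carry the symbol of 1 of the enzymes together with a second symbol read 6.47, 7.12 and 7.05 log2 and 7.97, 7.22 and 8.43 log2 in cells 1, 2 and 3, below background in every cell. Both were left out of the values and the probe set counts given above.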
